A study of Mus musculus with 20 samples.

Results

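Small nucleolar RNA genes were followed through LLC-1 tumors that had received gene transfer vectors. The members were all genes whose symbol begins with Snord or Snora and a digit and that had a probe set naming no other gene. Of several such probe sets the one with the highest mean over the 20 arrays was taken. The rule gave 51 of 19938 measured genes, 31 of the C/D box class (Snord) and 20 of the H/ACA box class (Snora). Another 18 small nucleolar RNA symbols of the array's annotation shared every probe set with other genes, mostly with a host gene or a sequence relative, and were not analysed here.

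LLC-1 is a Lewis lung carcinoma cell line, implanted here in C57Bl/6 mice. Each tumor received 25 µl of an adenovirus suspension per injection, at a viral load whose log10 in infectious units was 8, and the injection was given 5 times at intervals of 48 h. The vectors carried eGFP (a green fluorescent reporter, the control), IFNbeta (an antiviral cytokine), p19Arf (a tumor suppressor that stabilises p53), or p19Arf and IFNbeta. Each of the 4 groups had 5 arrays, every tumor in the study carried an adenovirus, and no uninjected tumor was among the samples. The labels do not say whether arrays of a group came from separate mice, so p-values measure the spread between these arrays, which may be technical in part. The tumors were measured whole, and fewer cells of a type and less RNA per cell cannot be told apart in such samples. Total RNA was labelled with biotin and hybridised to 1-colour Affymetrix arrays. Mature small nucleolar RNAs carry no poly(A) tail, and the sources used here do not name the labelling primer. A probe set inside an intron can hybridise the spliced-out RNA and the unspliced host transcript alike, which these values do not separate.

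Small nucleolar RNAs pair with ribosomal RNA in the nucleolus and direct enzymes to single nucleotides. C/D box RNAs bind fibrillarin, Nop56, Nop58 and Snu13 and guide methylation of the ribose, while H/ACA box RNAs bind dyskerin, Nhp2, Nop10 and Gar1 and guide the change of uridine to pseudouridine. Most lie in introns of host genes, many of them ribosomal protein genes or growth-related noncoding genes, and are cut from the intron after splicing. A few guide the cleavage of the ribosomal precursor in place of a modification.

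The 20 arrays differed in the standard deviation (SD) of the log2 values over all their probe sets, called the spread here, which ran from 1.99 to 2.15. Its 5 lowest values were on combination replicates 4 and 5, p19Arf replicates 2 and 4, and IFNbeta replicate 3. The array of IFNbeta replicate 3 also had a mean of 9.18 over 7 skin epidermis markers, against 6.19 to 7.20 on the other 19 arrays. Of the markers of carcinoma epithelium, Krt8 stood at percentile 48.0 of all gene levels and Epcam at percentile 21.1. No gap in spread set the 5 arrays off, since p19Arf replicate 2 had 2.04 and the next array, combination replicate 3, had 2.06. Values without the 5 arrays are given beside the group differences, the members described array by array and some other members. They are also given for the slopes, the lengths, the pairs, the hosts and the marker lists.

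The mean of the small nucleolar RNAs was higher in both groups with p19Arf than in both groups without it. Over the 51 genes the mean log2 value was 9.39 ± 0.23 with eGFP, 9.43 ± 0.39 with IFNbeta, 9.81 ± 0.37 with p19Arf and 9.75 ± 0.50 with the combination (SD, n = 5 each). The C/D box mean was 9.13 ± 0.21, 9.12 ± 0.33, 9.42 ± 0.34 and 9.39 ± 0.42 in the same order. The H/ACA box mean was 9.80 ± 0.27, 9.91 ± 0.50, 10.42 ± 0.48 and 10.31 ± 0.63. These group differences were of the size of the SD between arrays. The difference between the class means, C/D minus H/ACA, was -0.67 ± 0.11 with eGFP, -0.78 ± 0.20 with IFNbeta, -1.0 ± 0.31 with p19Arf and -0.92 ± 0.24 with the combination. Its size rests on the probes of each class, so only its change from array to array can be read.

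**Figure D1:**
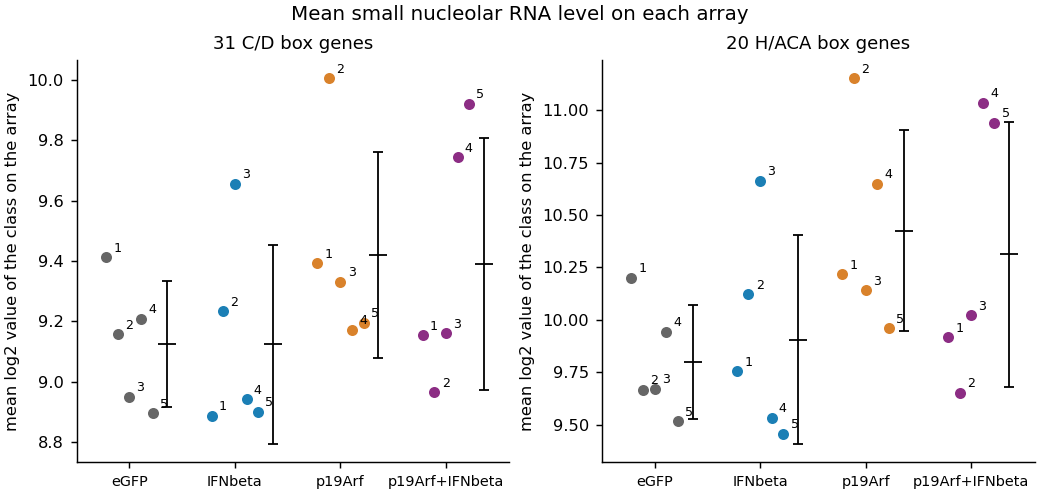
Mean log2 value of the 31 C/D box genes (left) and the 20 H/ACA box genes (right) on each array, by vector group. Numbers are replicates, and the black mark and bar at the right of each group are its mean and SD (n = 5). The C/D box mean is highest on p19Arf replicate 2, at 10.01, and the groups overlap in both panels.

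Single arrays stood far above their groups. The mean over all 51 genes was 10.46 on p19Arf replicate 2, 10.32 on combination replicate 5, 10.25 on combination replicate 4 and 10.05 on IFNbeta replicate 3. The next highest array, p19Arf replicate 4, was at 9.75. On p19Arf replicate 2, 49 of the 51 genes exceeded their own mean over the 20 arrays, and on IFNbeta replicate 3, 47 did. On eGFP replicate 5 only 2 did. Among all genes the share above their own mean was 45.4%, 42.0% and 61.0% on these 3 arrays, so the small nucleolar RNAs did not follow the bulk of the array.

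**Figure D2:**
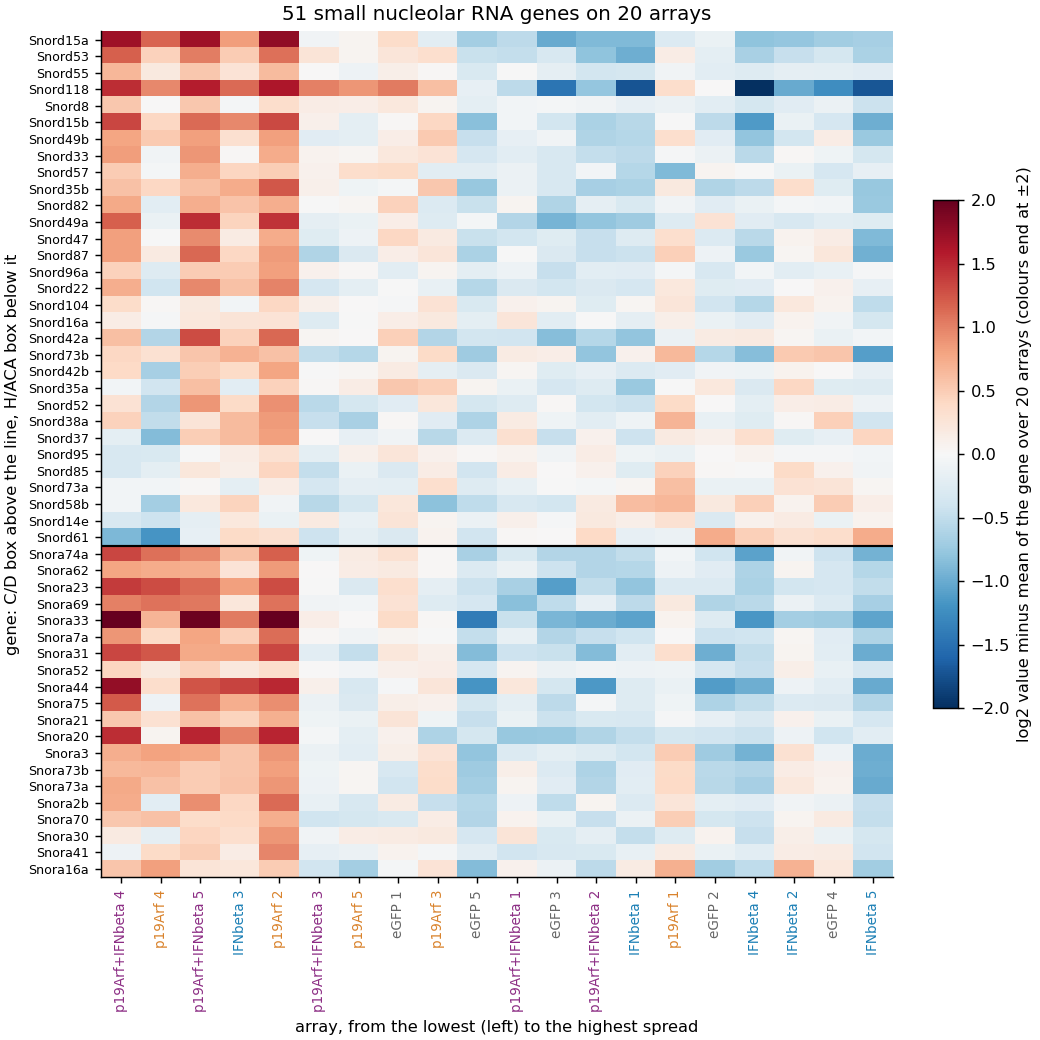
Each row is 1 small nucleolar RNA gene, each column 1 array ordered by spread, and the colour is the log2 value minus that gene's mean over 20 arrays. On 4 of the 5 arrays of lowest spread, at the left, at least 23 of 31 C/D box and 19 of 20 H/ACA box genes are above their mean. On p19Arf replicate 4 it is 11 and 17, and Snord61, at the foot of the C/D box block, is below its own mean on 3 of them.

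Against eGFP, 47 of the 51 genes had a higher mean with p19Arf (54.4% of all genes did) and 45 with the combination (55% of all genes). The median differences were 0.34 and 0.33 on the log2 scale, against 0.02 and 0.02 over all genes. With IFNbeta 31 of 51 had a higher mean (44.2% of all genes) and the median difference was 0.05. These comparisons share the eGFP arrays. No gene of the whole table passed an adjusted p under 0.05 in any of them (0%), in limma's moderated test with Benjamini-Hochberg adjustment. At an unadjusted limma p under 0.05, 15 members were higher with p19Arf (2.84% of all genes), 9 with the combination (6.18%) and 0 with IFNbeta (1.34%). The combination exceeded IFNbeta in 43 of 51 genes (57.1% of all genes), again with none passing and 7 higher at the unadjusted threshold (11.8% of all genes). For no member did all 5 arrays of one group lie above all 5 of the other in these comparisons. Of all genes 0.251% did with p19Arf, 0.782% with the combination and 0.552% with IFNbeta against eGFP, and 1.3% with the combination against IFNbeta. Without the 5 arrays of lowest spread the combination was higher than eGFP in 27 genes and IFNbeta in 12, while p19Arf was higher in 42. The difference of the mean over 51 genes from eGFP was then 0.23 with p19Arf, 0.01 with the combination and -0.11 with IFNbeta, where all arrays gave 0.42, 0.36 and 0.04.

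Taking the 10 arrays with the p19Arf vector against the 10 without it, 47 of 51 genes had a higher mean (57.8% of all genes). The count was 27 of 31 for the C/D box and 20 of 20 for the H/ACA box, with median differences of 0.25 and 0.51 against 0.04 over all genes. No gene passed the adjusted threshold (0%). At an unadjusted limma p under 0.05, 27 members were higher (14.8% of all genes) and 2 lower (18% of all genes). By class, 13 C/D box and 14 H/ACA box genes were among the 27. Snord118 had the largest difference of all 19938 genes and Snora33 the second. In all, 20 members stood among the 100 genes with the largest positive difference and 0 among the 100 with the most negative.

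Which genes passed depended on single arrays. Without IFNbeta replicate 3, limma called 3892 genes and 23 members in this comparison, without combination replicate 2 it called 3092 and 19, and without eGFP replicate 1 it called 2943 and 14. Without p19Arf replicate 1 the counts were 2797 and 9, and without combination replicate 1 they were 1241 and 4. Leaving out each of the other 15 arrays gave 0 or 1 genes and 0 members. The difference of the mean over 51 genes was 0.37 with all arrays, 0.45 without IFNbeta replicate 3, 0.29 without p19Arf replicate 2 and 0.18 without the 5 arrays of lowest spread, where 44 genes were still higher.

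**Figure D3:**
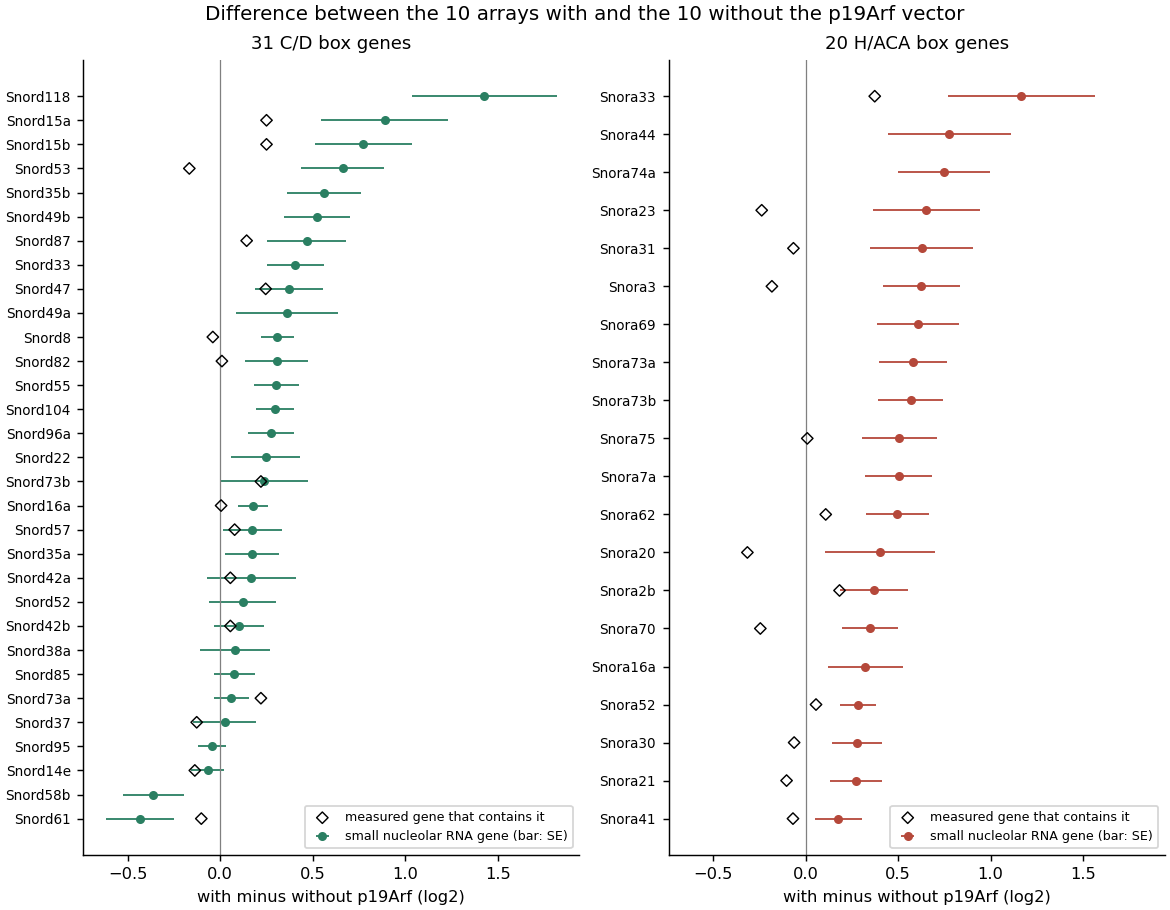
Filled points are the difference of each small nucleolar RNA gene between arrays with and without p19Arf, on the log2 scale with its standard error, and open diamonds the difference of the measured gene that contains it. All 20 H/ACA box points and 27 of 31 C/D box points lie right of 0, and 27 of 29 members with a measured host lie right of its diamond.

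Snord118, the U8 RNA needed to mature the large-subunit ribosomal RNAs, led the C/D box class. Its log2 values were 13.19, 12.15, 10.68, 10.90 and 11.97 with eGFP and 10.42, 11.13, 13.27, 10.11 and 10.44 with IFNbeta. They were 12.49, 13.75, 12.74, 13.10 and 13.02 with p19Arf and 11.61, 11.36, 13.14, 13.62 and 13.70 with the combination. All 5 p19Arf arrays were high, but eGFP replicate 1 and IFNbeta replicate 3 were as high, so the groups overlapped. The difference with against without p19Arf was 1.43 (standard error, SE, 0.39, a ratio of 2.69, limma adjusted p = 0.0610). It was 1.24 without the 5 arrays of lowest spread. Both of its probe sets held the same values. The RefSeq table places it inside no other gene.

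Snord15a and Snord15b, the U15 RNAs from introns of Rps3, came next in the class. Snord15a measured 9.43, 8.93, 8.06, 8.37 and 8.38 with eGFP and 8.19, 8.29, 9.89, 8.26 and 8.39 with IFNbeta. It measured 8.80, 10.84, 8.86, 10.23 and 9.12 with p19Arf and 8.55, 8.18, 8.99, 10.76 and 10.76 with the combination. The high values were those of the 5 arrays of lowest spread, and combination replicates 1 and 2 were at the level of the controls. The difference was 0.89 (SE 0.34, limma adjusted p = 0.0960), and 0.29 without these 5 arrays.

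Snord15b was high on much the same arrays, and its correlation with Snord15a over the 20 arrays was r = 0.892. Its values were 10.23, 9.69, 9.84, 9.87 and 9.37 with eGFP and 9.66, 10.07, 11.17, 9.08 and 9.23 with IFNbeta. They were 10.20, 11.54, 10.63, 10.63 and 10.02 with p19Arf and 10.16, 9.58, 10.31, 11.55 and 11.34 with the combination. IFNbeta replicate 3 lay within the range of the p19Arf groups. The difference was 0.77 (SE 0.26, limma adjusted p = 0.0740), and 0.49 without the 5 arrays of lowest spread.

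Snora33, which lies in the ribosomal protein gene Rps12, led the H/ACA box class. It measured 9.70, 9.06, 8.40, 8.60 and 7.91 with eGFP and 8.24, 8.64, 10.35, 8.15 and 8.26 with IFNbeta. It measured 9.38, 11.43, 9.34, 9.99 and 9.32 with p19Arf and 8.88, 8.32, 9.44, 11.60 and 11.27 with the combination. All 5 p19Arf arrays were above 4 of the 5 eGFP arrays, and eGFP replicate 1 fell among them. The difference was 1.17 (SE 0.40, a ratio of 2.24, limma adjusted p = 0.0740), and 0.58 without the 5 arrays of lowest spread.

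Snora44 lies in Snhg12, a noncoding host of small nucleolar RNAs. Its values were 10.84, 9.74, 10.51, 10.65 and 9.67 with eGFP and 10.60, 10.75, 12.20, 9.87 and 9.85 with IFNbeta. They were 10.72, 12.37, 11.11, 11.21 and 10.54 with p19Arf and 11.09, 9.71, 10.96, 12.61 and 12.12 with the combination. Combination replicate 2 was as low as the lowest eGFP arrays. The difference was 0.78 (SE 0.33, limma adjusted p = 0.120), and 0.41 without the 5 arrays of lowest spread.

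Snora74a, the U19 RNA, lies in the noncoding gene Snhg4. It measured 10.97, 10.28, 10.09, 10.26 and 10.02 with eGFP and 10.19, 10.60, 11.26, 9.60 and 9.73 with IFNbeta. It measured 10.61, 11.86, 10.70, 11.77 and 10.84 with p19Arf and 10.37, 10.08, 10.59, 12.01 and 11.63 with the combination. The p19Arf arrays were above 4 of the 5 eGFP arrays, with eGFP replicate 1 again inside their range. The difference was 0.75 (SE 0.25, limma adjusted p = 0.0741), and 0.36 without the 5 arrays of lowest spread.

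At the other end of the C/D box class was Snord61, from an intron of the X-linked splicing gene Rbmx. It measured 4.67, 5.70, 4.96, 5.30 and 4.57 with eGFP and 4.80, 5.27, 5.34, 5.43 and 5.70 with IFNbeta. It measured 4.83, 5.28, 5.03, 3.78 and 4.76 with p19Arf and 4.99, 5.36, 4.54, 4.05 and 4.79 with the combination. The lowest values were those of p19Arf replicate 4 and combination replicate 4, the 2 arrays of lowest spread. The difference was -0.43 (SE 0.18, limma adjusted p = 0.120), and -0.25 without the 5 arrays of lowest spread.

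Snora41, in the translation factor gene Eef1b2, had the smallest difference of the H/ACA box class, 0.18 (SE 0.13, limma adjusted p = 0.311), which turned to -0.024 without the 5 arrays of lowest spread. Its values were 7.76, 7.56, 7.37, 7.86 and 7.48 with eGFP and 7.54, 7.85, 7.83, 7.48 and 7.31 with IFNbeta. They were 7.86, 8.66, 7.65, 8.07 and 7.57 with p19Arf and 7.31, 7.38, 7.53, 7.59 and 8.19 with the combination. It was highest on p19Arf replicate 2, combination replicate 5 and p19Arf replicate 4, and the other arrays of all 4 groups overlapped.

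The remaining C/D box genes fell in order between these ends. Differences above 0.4 were found for Snord53 (0.66, in Wdr43), Snord35b (0.56), Snord49b (0.52, in 2410006H16Rik), Snord87 (0.47, within Mcmdc2 and Snhg6) and Snord33 (0.41, in Rpl13a). Snord47 in Gas5 had 0.37 and Snord49a 0.36. Snord33 and Snord35a, both from Rpl13a and known from cell lines as mediators of lipotoxic stress, differed in size, with 0.41 and 0.17. Snord8 (0.31), Snord82 (0.31), Snord55 (0.30), Snord104 (0.29), Snord96a (0.27), Snord22 (0.25) and Snord73b (0.24) followed. Snord22 is the U22 RNA, needed to mature the small-subunit ribosomal RNA. Snord49a turned to -0.10 without the 5 arrays of lowest spread, and Snord53 then had 0.37.

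Among the C/D box genes with differences under 0.2 were Snord16a (0.18), Snord57 (0.17), Snord42a (0.17), Snord52 (0.12), Snord42b (0.10), Snord38a (0.08), Snord85 (0.08), Snord73a (0.06) and Snord37 (0.02). Negative values were those of Snord95 (-0.04), Snord14e (-0.07), Snord58b (-0.36) and Snord61. Of these 4, Snord58b and Snord61 were below an unadjusted limma p of 0.05. Their mean levels, 5.14 and 4.96, were low beside the members' median of 9.83. The differences of Snord37, Snord95 and Snord14e changed sign under quantile normalization. Leaving out the 5 arrays of lowest spread put Snord95 at 0.011, Snord14e at 0.092, Snord42a at -0.12 and Snord52 at -0.035.

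The H/ACA box genes covered a narrower range. Snora23 in Ipo7 had a difference of 0.65, Snora31 in Tpt1 0.63, Snora3 in Rpl27a 0.63 and Snora69 in Rpl39 0.61. These were 0.15, 0.18, 0.40 and 0.17 without the 5 arrays of lowest spread. With the spread as a covariate Snora23 turned to -0.084 and Snora31 to -0.013. Snora73a (0.58) and Snora73b (0.57), the U17 RNAs that take part in the first cleavages toward the small-subunit ribosomal RNA, both lie in Snhg3. Their values over the arrays had r = 0.996, so near-identical sequence may keep them from being measured apart. Snora75 (0.51), Snora7a (0.50), Snora62 (0.50), Snora20 (0.40), Snora2b (0.37), Snora70 (0.35) and Snora16a (0.32) followed, of which Snora20 turned to -0.097 without these arrays. Snora52 (0.29), Snora30 (0.28) and Snora21 (0.27) preceded Snora41. Of the 5 members with a second probe set, the difference of the second was within 0.02 log2 units of the first. This is no independent check, since for Snora30 and Snord118 both probe sets held the same values. The lowest r between the probe sets of a member was 0.987, for Snora21.

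With all arrays the IFNbeta vector went with no common direction. Against eGFP, 31 of 51 genes were higher with IFNbeta (44.2% of all genes). Without IFNbeta replicate 3 only 12 were, among them 3 of 20 H/ACA box genes. Taking the 10 arrays with IFNbeta against the 10 without, 22 of 51 genes had a higher mean (41.5% of all genes) and the median difference was -0.03. No member passed, and 0 were below an unadjusted limma p of 0.05 (4.92% of all genes). The sizes that led were -0.52 for Snord118 (SE 0.39), -0.31 for Snord49b (SE 0.18) and 0.29 for Snord37 (SE 0.17), with limma adjusted p = 0.959 for each.

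The interaction, the effect of p19Arf in the presence of IFNbeta minus its effect in the absence of IFNbeta, was tested in the same limma fit. It was negative for 32 of 51 genes (47.8% of all genes), with a median of -0.07. No member passed, and 0 were below an unadjusted p of 0.05 (1.3% of all genes). Snora31 had -0.67 (SE 0.56), Snora16a -0.61 (SE 0.41) and Snord35b -0.59 (SE 0.40). A difference between the p19Arf effects with and without IFNbeta was therefore not detectable for any member with this number of arrays.

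The small nucleolar RNAs were low on arrays of high spread. For each gene a slope on the spread was fitted in limma together with the 4 group means, so that it compares arrays within groups, pooled over the 4 groups, and is given per 0.1 of the spread. A group of 5 arrays is too small for a correlation of its own. The groups were not alike, since in the p19Arf group the array of lowest spread, replicate 4, had the lowest C/D box mean. Of the 51 genes 33 fell with rising spread at an adjusted p under 0.05 (26.2% of all genes) and 1, Snord61, rose (27.3% of all genes). The fall was called in 17 of 20 H/ACA box and 16 of 31 C/D box genes. The median slope was -0.79 for the H/ACA box, -0.48 for the C/D box and -0.07 over all genes. Much of this rested on the 5 arrays of lowest spread. Without them 5 members were called lower (4 C/D, 1 H/ACA), 34 of 51 slopes were negative where 44 had been, and 5002 of all genes were called lower.

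The most negative slopes of all 19938 genes were those of Snord118, Snora33, Snord15a, Snora23 and Snora44, in that order. Snord118 fell by 1.86 log2 units per 0.1 of the spread (SE 0.30, limma adjusted p = 5.62e-05) and Snora33 fell by 1.84 (SE 0.32, limma adjusted p = 0.000101). Snord15a fell by 1.74 (SE 0.23) and Snora23 fell by 1.48 (SE 0.19). Snora74a (slope -1.28), Snora62 (-0.84), Snora69 (-1.06) and Snord53 (-1.06) were also among the 8 members of smallest p. In all, 21 members stood among the 100 genes of most negative slope. Snord61 rose by 0.66 (SE 0.19, limma adjusted p = 0.00633). With the interquartile range as the measure of spread, Snora33 (limma adjusted p = 0.180), Snord15a (0.0748) and Snord53 (0.114) no longer passed. Without the 5 arrays of lowest spread Snord118 (slope -2.12), Snord15a (-0.89) and Snora62 (-0.57) still passed, while Snora33 (-0.81), Snora74a (-0.73), Snord53 (-0.63), Snora23 (-0.63) and Snora69 (-0.47) did not.

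The genes outside this pattern were all of the C/D box class. Snord37, Snord95, Snord58b, Snord14e, Snord73a and Snord85 had positive slopes from 0.05 to 0.24 that did not pass. Most of these genes were of low level. Snord61 and Snord58b had means of 4.96 and 5.14, and the lowest mean of an H/ACA box gene was 7.69. Snord37, Snord73a and Snord85 reached at most 7.58, 7.30 and 7.44 on any array. Snord14e and Snord95 had at least 9.97 and 9.22 on every array. Snord38a, at most 6.90, had a negative slope (-0.13). The part of the level was not tested. Snord14e is a U14 RNA, a family needed for the small-subunit ribosomal RNA. Over the 20 arrays the correlation with the spread ran from -0.899 for Snora74a and -0.892 for Snord15a to 0.452 for Snord14e and 0.702 for Snord61. In the H/ACA box class Snora62 had -0.885, and the weakest values were -0.489 for Snora41 and -0.391 for Snora16a.

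**Figure D4:**
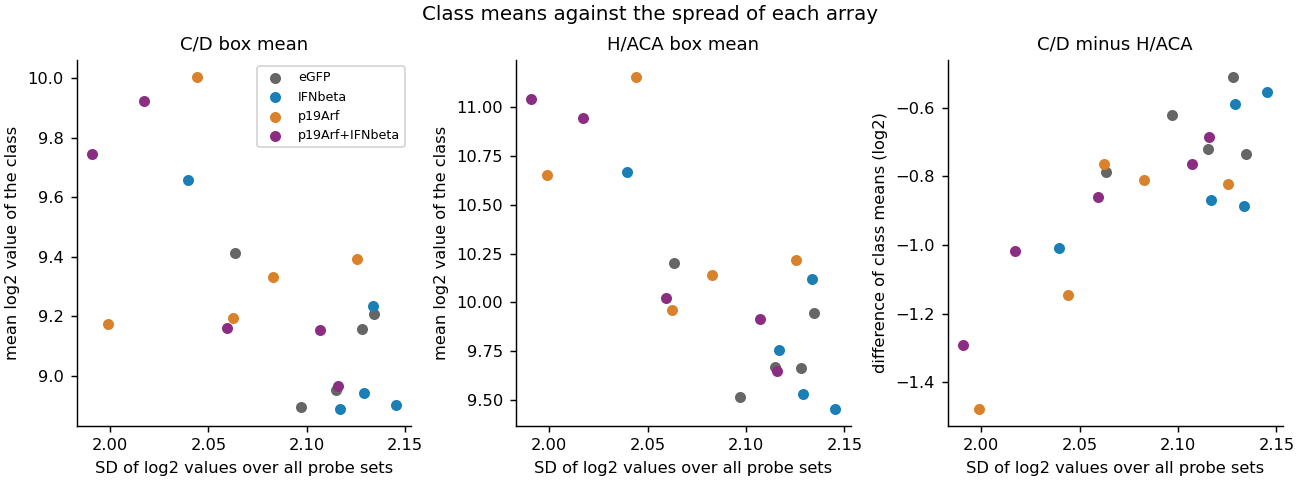
The C/D box mean, the H/ACA box mean and their difference on each of the 20 arrays, against the SD of the log2 values over all probe sets of the array, coloured by vector group. Both means are lower at high spread and the difference of the classes is closer to 0 there, with r = -0.672, -0.824 and 0.834 from left to right.

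Over the 20 arrays the H/ACA box mean had r = -0.824 with the spread (Spearman rho = -0.713) and the C/D box mean r = -0.672 (rho = -0.549). The difference between the classes had r = 0.834 (rho = 0.707). Leaving out the 2 arrays whose spread was farthest from the median, the values were -0.770, -0.749 and 0.711, and for deviations from the group means -0.774, -0.585 and 0.812. They were -0.442, -0.371 and 0.401 without the 5 arrays of lowest spread. They are given as descriptions, since the spread and the means come from the same arrays. One array parted the classes most: p19Arf replicate 4, of low spread, combined a C/D box mean of 9.17 with an H/ACA box mean of 10.65.

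The spread and the p19Arf vector moved together in part. The spread was 2.11 ± 0.03 with eGFP, 2.11 ± 0.04 with IFNbeta, 2.06 ± 0.05 with p19Arf and 2.06 ± 0.05 with the combination (SD, n = 5 each). With the spread as a covariate the difference of the mean over 51 genes between arrays with and without p19Arf was 0.07 in place of 0.37, and 37 genes were higher. For the C/D box it was 0.06 in place of 0.28, and for the H/ACA box 0.09 in place of 0.52. When each array was first scaled to 1 common SD the difference was 0.39, and after quantile normalization 0.43. With the interquartile range of the array in place of the SD, 6 of 51 members were called lower and the mean over 51 genes had r = -0.395. The members' count thus went from 33 to 6. The count over all genes, 5214 (26.2%) with the SD, stayed within 1.5 times that number. Leaving the members' own probe sets out of the SD gave r = -0.770.

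Other groups moved with the spread and with the small nucleolar RNAs. A list of 10 macrophage markers had r = 0.819 with the spread and -0.867 with the mean over the 51 genes. Its mean ran from 10.65 to 11.06 with eGFP, 10.61 to 11.07 with IFNbeta, 10.29 to 10.99 with p19Arf and 10.35 to 11.08 with the combination. Of its 10 genes 9 were lower with p19Arf, and 0 passed. A list of 5 measured proliferation genes had r = 0.886 with the spread and -0.789 with the mean over the 51 genes, with all 5 lower with p19Arf and 0 passing. A list of 7 endothelial markers had r = 0.708 and -0.438, with 4 of 7 lower, 3 higher and 0 passing. Its genes were unlike, with r with the spread from 0.843 for Cdh5 to 0.0067 for Cldn5. A list of 6 markers of carcinoma epithelium had r = -0.717 and 0.470, with 5 of 6 higher and 0 passing. Without the 5 arrays of lowest spread the r with the mean over the 51 genes was -0.475 for macrophage, -0.395 for proliferation, -0.309 for endothelial and 0.213 for epithelium markers. Of the other lists, T cell markers had r = 0.242 with the spread, fibroblast 0.304, skeletal muscle -0.0263 and skin epidermis -0.319. The 7 fibroblast genes were divided, from r = 0.820 for Lum to -0.656 for Col1a1. With p19Arf 4 of them were higher and 3 lower, with 0 passing and 5 below an unadjusted limma p of 0.05 (32.8% of all genes). By mean level the macrophage and proliferation genes stood between percentile 66.2 of all genes (Cd14) and percentile 99.7 (Lyz2). The markers of carcinoma epithelium stood lower, between percentile 21.1 (Epcam) and percentile 48.0 (Krt8). The part of these lists and of the spread in the result was not tested.

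Members of the H/ACA box class moved together more closely than those of the C/D box class. The median correlation over the 20 arrays was 0.818 for 190 pairs of H/ACA box genes, 0.538 for 465 pairs of C/D box genes and 0.680 for 620 mixed pairs. The medians were 0.597, 0.300 and 0.438 without the 5 arrays of lowest spread. All 190 H/ACA box pairs were positive, against 388 of the 465 C/D box pairs. These pairs share arrays and genes, so the values are descriptions. The classes also differed in level, with a lowest gene mean of 4.96 in the C/D box and 7.69 in the H/ACA box. The part of level in these correlations was not tested. For 10 pairs from 1 host the median was 0.696, close to the 0.671 of the other 1265 pairs. Among them Snora75 and Snord82, both in Ncl, had r = 0.887, while Snord95 and Snord96a, both in Rack1, had r = 0.214.

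Longer RNAs had the larger differences. By the RefSeq gene table of assembly GRCm38.p6, the members ran from 45 to 205 nucleotides, with a median of 68 for the C/D box and 125 for the H/ACA box. Over the 51 genes the length and the difference with p19Arf had r = 0.551 (rho = 0.628). The value was 0.653 within the C/D box and 0.179 within the H/ACA box. The values were 0.502, 0.635 and 0.420 without the 5 arrays of lowest spread. The 23 genes of at least 100 nucleotides were all higher with p19Arf, with a median of 0.57, and of the 28 shorter ones 24 were higher, with a median of 0.21. Both medians were lower without the 5 arrays, 0.22 and 0.10. Snord118, Snord15a, Snord15b and Snord22 were the 4 long C/D box genes, with a median of 0.83 against 0.18 for the other 27. Snora20, at 61 nucleotides the only short H/ACA box gene by this table, had 0.40. Members share arrays and their class, so these correlations are descriptions.

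**Figure D5:**
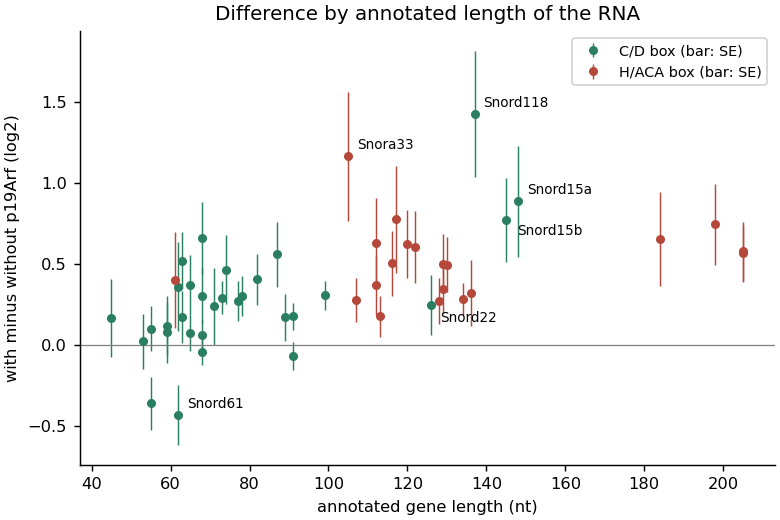
Difference between arrays with and without p19Arf (log2, with its standard error) against the annotated length of each small nucleolar RNA gene in nucleotides, coloured by class. The 4 C/D box genes over 100 nucleotides include Snord118, Snord15a and Snord15b, the highest of the class, while Snord22 lies at 0.25.

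Transcripts of the host genes went in both directions. The RefSeq table placed 29 members inside 25 genes that were measured, without regard to strand. Of the 25 hosts 12 were higher and 13 lower with p19Arf, with a median of -0.04 and 0 passing in limma (0%), and 9 were below an unadjusted p of 0.05 (32.8% of all genes). In 27 of the 29 pairs the difference of the member exceeded that of its host, the exceptions being Snord73a in Rps3a1 and Snord61 in Rbmx. The median correlation of member and host over the 20 arrays was 0.0790. Without the 5 arrays of lowest spread 16 of 25 hosts were higher, the member exceeded its host in 19 of 29 pairs and the median correlation was 0.355.

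The hosts of the leading members differed among themselves. Rps12 had a difference of 0.37 (SE 0.13) beside 1.17 for Snora33, with r = 0.811 between them, and Rps3 0.25 (SE 0.07) beside 0.89 for Snord15a, with r = 0.608. Ipo7, a nuclear import receptor, had -0.24 beside 0.65 for Snora23, with r = -0.748. Wdr43, itself a factor of small-subunit processing, had -0.17 beside 0.66 for Snord53, with r = -0.685. Gas5, a noncoding host, had 0.25 beside 0.37 for Snord47, with r = 0.850, the highest of the 29 pairs. Tcp1, a chaperonin subunit, had -0.31 beside 0.40 for Snora20, with r = -0.812, the lowest. Eef1b2 had -0.07 and Rbmx -0.10.

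The starts of these host genes differ in sequence. Many hosts begin transcription in a run of C and T, a start that ties their translation to growth signals in other systems. The windows shown are those of 5 hosts of the leading members, set beside the unlike behaviour of host and member, from 40 bases before to 20 bases after the annotated start, read 5′ to 3′ on the strand of the gene from the RefSeq promoter table of GRCm38.p6. Capitals mark CTTTC, which was searched on both strands and was chosen after host starts had been read.
Rps3, chr7:99483690-99483749, minus strand: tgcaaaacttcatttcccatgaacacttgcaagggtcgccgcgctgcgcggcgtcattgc
Wdr43, chr17:71616175-71616234, plus strand: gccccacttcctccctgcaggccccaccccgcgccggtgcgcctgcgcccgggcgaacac
Rps12, chr10:23787190-23787249, minus strand: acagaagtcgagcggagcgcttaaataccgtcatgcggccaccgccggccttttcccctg
Snhg12, chr4:132308638-132308697, plus strand: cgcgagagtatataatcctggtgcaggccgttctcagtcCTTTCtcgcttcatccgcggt
Ipo7, chr7:110018275-110018334, plus strand: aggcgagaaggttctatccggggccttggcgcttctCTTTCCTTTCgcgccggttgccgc

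The motif stood across the start in Snhg12 and in 2 adjacent copies in Ipo7, and these letters were not in the windows of Rps3, Wdr43 and Rps12. Of 43 genes that contain a member 31 were in the promoter table, and 11 of them (35.5%) held the motif on either strand in this window, 10 on the strand of the gene. Among all 27025 genes listed there, 17.0% held it on either strand and 9.42% on the strand of the gene. Snhg12, whose Snora44 had a difference of 0.78, and Rps12, whose Snora33 had 1.17, differ in this motif. The windows of Rps12, near its end, and of Wdr43 hold runs of C and T without the motif. Its absence is therefore not the absence of such a run. A match is a description of the letters, the share among hosts is no support for the choice of motif, and sequences of the small nucleolar RNAs themselves were not used here.

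None of the genes for the core proteins of the particles passed the threshold between arrays with and without p19Arf. For the C/D box core, the differences with p19Arf were 0.15 for Fbl, the methyltransferase, 0.08 for Nop56, -0.14 for Nop58 and -0.16 for Snu13. For the H/ACA box core, Dkc1, the pseudouridine synthase dyskerin, had -0.52 (SE 0.15, limma adjusted p = 0.0610), with Nhp2 at -0.08, Nop10 at 0.01 and Gar1 at 0.04. On the spread, Dkc1 rose by 0.76 per 0.1 (limma adjusted p = 5.07e-06), the opposite direction to the H/ACA box RNAs. Snu13, Nop58, Nhp2 and Nop10 also rose, so 5 of the 8 were called higher (27.3% of all genes) and 0 lower.

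The factors that assemble and transport the particles were lower in 11 of 14 genes, with a median of -0.13 and 0 passing. Naf1, the H/ACA assembly factor, had -0.50 and Tgs1, which hypermethylates the cap of small RNAs made from their own promoters, -0.43. Of 12 measured genes of RNA polymerase I and its factors 8 were lower, among them Taf1b (-0.28) and Rrn3 (-0.27). Of 30 pre-rRNA processing factors 20 were lower, led by Imp4 (-0.54) and Utp4 (-0.44). Of 17 genes of nuclear RNA decay and the nonsense-mediated pathway 14 were lower, led by Exosc1 (-0.45) and Dbr1 (-0.30), the enzyme that opens intron lariats. In the list of intron splicing 5 of 9 were lower, with Prpf8 at -0.40 and Snrnp70 at 0.36. None of the genes in these lists passed, and 42.2% of all genes were lower. The 5 lists also rose with the spread, with median correlations of 0.684, 0.674, 0.638, 0.642 and 0.458 in this order (-0.232 over all genes). Slopes were called higher for 9 of 14, 7 of 12, 16 of 30, 9 of 17 and 4 of 9 genes (27.3% of all genes). They were called lower for 0, 2, 0, 1 and 1 (26.2% of all genes). The part of the spread in these differences was not tested.

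Other short noncoding RNAs shared the direction of the members. All 3 Scarna genes, guides of the Cajal body that modify spliceosomal RNAs, were higher with p19Arf, with 0.63 for Scarna13, 0.45 for Scarna8 and 0.45 for Scarna17, and 0 passed. Of 300 microRNA genes 250 were higher, with a median of 0.13 (0 passing). Of 1027 olfactory receptor genes, which serve smell, 976 were higher with a median of 0.16 (0 passing). The ribosomal protein genes were divided, 32 of 62 higher with a median of 0.01, as were histone genes, 12 of 30 higher. The olfactory receptor and microRNA lists had median correlations of -0.527 and -0.519 with the spread, against -0.681 for the small nucleolar RNAs and -0.232 over all genes. Their levels were unlike. The median level was 5.40 for the olfactory receptor and 6.34 for the microRNA genes, below the 7.87 over all genes. For the small nucleolar RNAs it was 9.83. The part of this shared movement in the result was not tested.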

How the data were processed

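The authors deposited 1 table of log2 values for 35556 probe sets on 20 arrays. The logarithm was read from the range of the values, 2.33 to 14.7, with array medians of 7.49 to 7.61. The submitters' processing notes name GCOS and Affymetrix Expression Console with no version. The sources used here do not give summarisation, background correction or detection calls, and no normalization was added. Gene symbols came from the platform annotation, updated by the RefSeq table of GRCm38.p6. 21789 probe sets had 1 symbol, 1621 had several and 12146 were not listed. The number of arrays limits the precision.

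limma 3.58.1 in R 4.3.3 fitted 1 mean per group to all 19938 genes without a filter, with eBayes moderation, 16 residual degrees of freedom, 2-sided tests, Benjamini-Hochberg adjustment over all genes within each contrast and a threshold of 0.05. The fit was tested on simulated data with independent noise for each gene and a spread drawn at random. That setting leaves out movement shared by genes over an array, and a spread computed from the same arrays. The members, lists, tests and alternatives were chosen with earlier results of these data known.

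Members described array by array were the 3 of each class whose difference with p19Arf was highest and the 1 where it was lowest. Other named genes were members called on the spread (8 of smallest p), the 4 highest and 4 lowest of each class, the extremes of correlation with the spread, the 3 of largest size for IFNbeta and the interaction, the 8 core proteins and 2 genes per list. The rest of the members were given for completeness. Alternatives were quantile normalization, median centring, scaling to 1 SD, the spread as covariate, array weights, robust trended moderation, a filter at percentile 25 of level, all probe sets averaged, the arrays of lowest spread left out, the interquartile range as spread, the replicate number as a block, and each array left out. The slopes and descriptions without the arrays of lowest spread were added after seeing the data.

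Replicate numbers did not pair arrays: the 30 correlations of same-numbered arrays, as deviations from group means, ran from -0.624 to 0.657 with a median of -0.05.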

Additional observations from a re-analysis of the deposited data

Results flagged for a closer look

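Among 112 sets of 5 arrays (28 quantities in 4 groups), 7 held an array apart from its group by Dixon's test, where chance alone gives about 1 in 20. On p19Arf replicate 2 the mean over all members was 10.46, against 9.50 to 9.75 on the other 4 arrays, and the C/D box mean was 10.01, against 9.17 to 9.39. IFNbeta replicate 3 had a spread of 2.04, against 2.12 to 2.15 in its group. On the same array Snora23 was at 11.57 (the others 9.97 to 10.39), Snord15a at 9.89 (8.19 to 8.39) and Snora33 at 10.35 (8.15 to 8.64). In the control group Snora74a was at 10.97 on eGFP replicate 1, against 10.02 to 10.28. No interaction of p19Arf and IFNbeta passed for any member.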

How the results depend on the processing

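Results other than single genes stayed within 1.5 times their count, 1 SD of their class mean or 0.25 of their r under every alternative run, except those named here. Within that 1 SD some class mean differences near 0 changed sign, as the mean over 51 genes for IFNbeta against eGFP did (0.04, and -0.11 without IFNbeta replicate 3). With array weights limma called 5197 genes and 20 members for p19Arf, 1730 and 2 for the combination against IFNbeta, 166 genes for the combination and 5 for IFNbeta against eGFP, 12 for all arrays with IFNbeta against those without, and 11 H/ACA box slopes as lower. Median centring, scaling to 1 SD and the filter on level each called 1 gene for the combination against IFNbeta. Without the 5 arrays of lowest spread 1 gene was called for IFNbeta and 3 for the combination against eGFP. Members then higher were 12 for IFNbeta (9 C/D, 3 H/ACA) and 27 for the combination (14 C/D). An alternative chosen after seeing the data refitted the slopes and the descriptions without those 5 arrays. It called 5 members lower (4 C/D, 1 H/ACA), and r was -0.414, -0.371 and -0.442 for all, C/D and H/ACA, and 0.401 for the difference of the classes. The median r of member and host went from 0.079 to 0.355. For r with the mean over 51 genes, macrophage markers went from -0.867 to -0.475, proliferation from -0.789 to -0.395 and epithelium from 0.470 to 0.213. The median difference of RNAs of at least 100 nucleotides went from 0.57 to 0.22. With the interquartile range as spread 6 members were called lower (1 C/D, 5 H/ACA) and r was -0.395, -0.265 and -0.509 for all, C/D and H/ACA. The count of all genes called lower on the spread, 5214 in the main fit, stayed within 1.5 times under every alternative. Leaving out 1 array at a time gave 0 to 3892 genes and 0 to 23 members for p19Arf, 0 to 2351 and 0 to 3 for the combination against IFNbeta, and 0 to 84 genes for the combination against eGFP. Members higher for IFNbeta against eGFP were 12 to 42 (C/D 9 to 22, H/ACA 3 to 20), with 12 without IFNbeta replicate 3.

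Signs turned for some differences with p19Arf, among them Snora23 and Snora31, which had been 0.65 and 0.63. Quantile normalization gave Snord95 0.038, Snord14e 0.042 and Snord37 -0.032, and Snord37 was -0.013 after median centring and -0.035 after scaling. The spread as covariate gave Snora23 -0.084, Snora21 -0.023, Snora31 -0.013 and Snord14e 0.038. Larger turns under the covariate were those of Snora20 (-0.26), Snord42a (-0.17), Snord57 (-0.16) and Snord49a (-0.15). Snord42b (-0.036), Snord82 (-0.0075), Snord73b (-0.0027) and Snord22 (-0.0026) turned as well. Array weights gave Snord95 0.020 and Snord14e 0.010, and leaving out the 5 arrays gave Snord95 0.011, Snord14e 0.092 and Snora41 -0.024. Without the 5 arrays Snord42a (-0.12), Snord49a (-0.10), Snora20 (-0.097) and Snord52 (-0.035) turned as well. Snord37 ran from -0.092 to 0.12 with 1 array left out. The causes were not tested.

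With the replicate number as a block the difference of the mean over 51 genes stayed 0.37, limma called 0 genes in every comparison of groups, and 34 members as lower on the spread in place of 33. Only 3 of 20 arrays correlated best with their own number. The table holds no signal over background, so weak probe sets could not be set apart.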
